A study of Mus musculus with 16 samples.

Results

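Within the OCT4 peaks of 2TS22C mouse embryonic stem (ES) cells, 65 of 26704 merged peaks lay at 4 zinc-finger genes of chromosome 4, Zfp990, Zfp992, Zfp981 and Zfp988. The members were chosen by position: a peak was taken when its midpoint fell inside the body of 1 of these genes or within 100 kb of an annotated transcript start of it (GENCODE M21, build GRCm38/mm10). The genes themselves were selected on the peak list for holding many peaks, so the number of peaks and their spacing are descriptions. The experiment was chromatin immunoprecipitation followed by sequencing (ChIP-seq) for OCT4, the remodeller subunit BRG1 and the acetylated histone H3K27ac, with 16 libraries in 8 groups of 2 replicates. In 2TS22C cells the active source of SOX2 is a Tet-Off transgene, which doxycycline (dox) at 1 µg/ml silences, and cells were collected 26 h after adding it (SOX2 OFF) or untreated (SOX2 ON). ZHBTc4 cells carry the same switch for OCT4 and were collected at 24 h. All groups grew in serum with 2i, a pair of kinase inhibitors, and LIF. The list used here combines OCT4 peaks of 2TS22C cells as coordinates alone. Which of the 4 OCT4 libraries entered it is not given in the sources used here, so no value per library, no depth and no difference between SOX2 ON and SOX2 OFF could be had. As a check of the label, peaks were also counted by the same rule at genes that mark ES cells, giving 13 at Pou5f1 (which encodes OCT4), 12 at Nanog, 9 at Sox2, 8 at Esrrb and 5 at Klf4. Over 21938 protein-coding genes the median was 3 and the 99th percentile was 12. Only Pou5f1 and Nanog reached that percentile, and the count at Klf4 was nearer the median.

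C2H2 zinc-finger proteins bind DNA through repeated finger domains, and many of them also carry a KRAB domain through which they recruit silencing machinery, often to transposable elements. Their genes commonly sit in tandem arrays that arose by duplication, so introns, promoters and the sequence between genes can be near-identical from copy to copy. A short read from such sequence may map equally well to several places, and how reads of this kind were treated during alignment is not given in the sources used here.

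OCT4 binds the octamer ATGCAAAT (ATTTGCAT on the other strand), and with SOX2 it binds a longer composite motif, made of CATTGT, then T, then ATGCAAAT. The peaks of the 4 genes held few matches to either. The composite, on either strand with at most 3 mismatches, was found in Zfp990 peak 11 and Zfp990 peak 13, and the octamer without mismatch in Zfp990 peaks 3, 8 and 23, where peaks carry the name of their gene and a number from the lowest coordinate upward. The 5 matches are shown in capitals with 15 bases on each side, written 5′ to 3′ on the strand of the match, because they are the only sites of these motifs among the 65 peaks.
Zfp990 peak 3, chr4:145434130-145434167, minus strand: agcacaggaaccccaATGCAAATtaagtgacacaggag
Zfp990 peak 8, chr4:145455900-145455937, plus strand: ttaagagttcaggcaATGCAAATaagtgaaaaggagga
Zfp990 peak 23, chr4:145586249-145586286, minus strand: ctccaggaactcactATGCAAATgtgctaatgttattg
Zfp990 peak 11, chr4:145489578-145489622, plus strand: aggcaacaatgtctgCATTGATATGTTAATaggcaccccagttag
Zfp990 peak 13, chr4:145516035-145516079, plus strand: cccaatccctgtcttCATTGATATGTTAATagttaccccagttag

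Both composite matches had the same 15 letters and 3 mismatches, the most that was allowed. All 5 matches lay at Zfp990, and none of the 41 peaks at the other 3 genes held either motif. By count, the composite was present in 2 of 65 peaks (3.08%, 95% Wilson interval 0.848 to 10.5) against 11.5% of all 26704 peaks. The octamer was present in 3 of 65 (4.62%, 1.58 to 12.7) against 11.0% of all peaks. The core of the SOX motif, CCATTGT or CCTTTGT on either strand, was present in 10 of 65 (15.4%, 8.58 to 26.1) against 30.3% of all peaks. It was found in 4 peaks at Zfp990, 1 at Zfp992 and Zfp981 and 5 at Zfp988. The upper ends of the intervals for the composite and the SOX core lay below the shares over all peaks, and that for the octamer did not. These intervals cover counting error only and take peaks as independent, which copies of one sequence are not. Within the central 200 bp, where every peak contributes the same length, the shares were 1.54% against 8.59% for the composite, 3.08% against 7.98% for the octamer and 4.62% against 20.5% for the SOX core. A match is a description of the letters and not a binding site, and its absence says nothing on whether OCT4 was there.

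Zfp990 (chr4:145510759-145539188, plus strand) held 24 peaks, 4 of them in its body, all 4 in introns. Zfp992 (chr4:146449023-146470292, plus strand) and Zfp981 (chr4:146502027-146539395, plus strand) are neighbours, and the same 17 peaks met the rule for both, with 4 in the body of Zfp992 and 3 in that of Zfp981. Zfp988 (chr4:147305674-147333734, plus strand) held the remaining 24 peaks, 2 of them in its body. Thus 13 of the 65 peaks were in a body of the 4 genes and the others lay around them. Consecutive peaks were a median of 6.37 kb apart, against 39.2 kb over all peaks, and the density over the windows was 93.3 peaks per Mb against 9.80 per Mb across the chromosomes. The last peak inside the limit, Zfp988 peak 24 (chr4:147431615-147432611), lay 99.7 kb from a start, and the first one outside (chr4:147433160-147433417) lay 100.9 kb away.

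**Figure D1:**
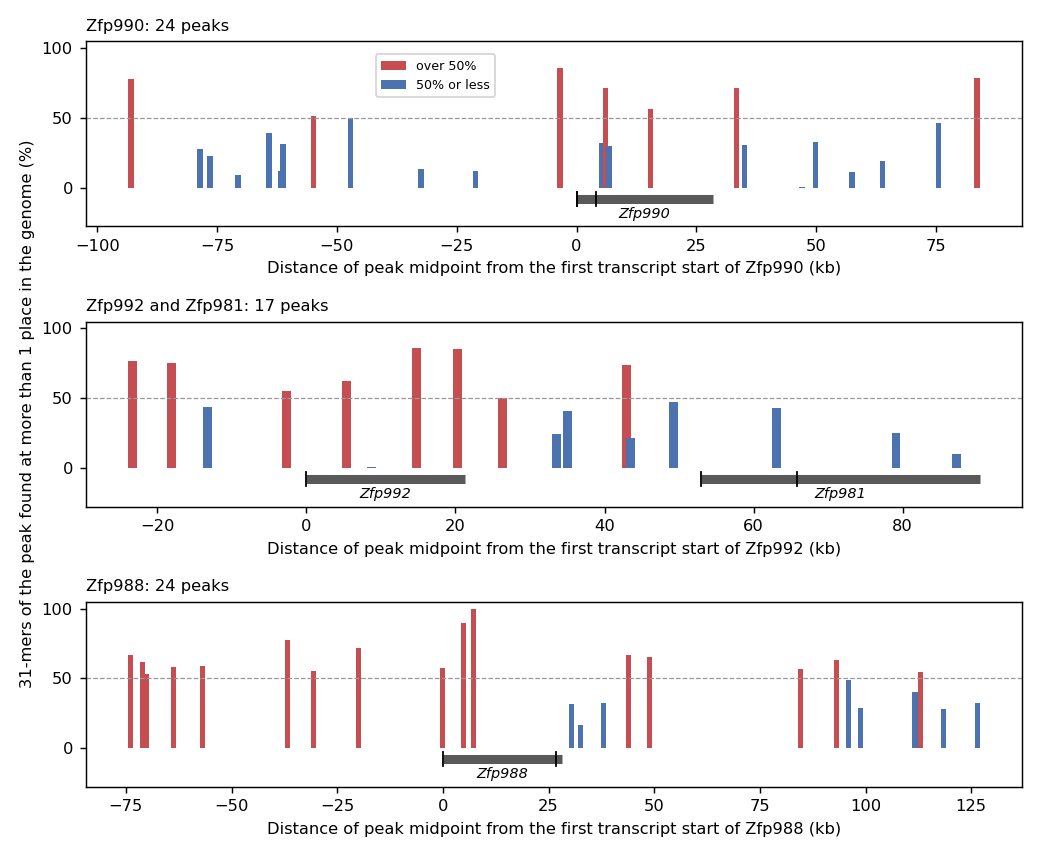
Position of each peak (x axis, kb from the first transcript start of the gene named on the axis) and the share of its 31-mers found at more than 1 place in the genome (y axis, percent), in 3 panels for the 24, 17 and 24 peaks. Grey bars below are gene bodies with transcript starts as ticks; red bars mark the 7, 8 and 16 peaks above the dashed line at 50%, and peaks lie on both sides of the first start of every gene.

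The peak nearest a start differed from gene to gene. At Zfp988 it was peak 9 (chr4:147305178-147305941, 764 bp), whose midpoint lay 114 bp upstream of the first start, and this was the only member within 1 kb of a start of the 4 genes. At Zfp990 it was peak 13 (chr4:145515854-145516076, 223 bp), 1081 bp downstream of a start and inside an intron. At Zfp992 it was peak 4 (chr4:146446207-146446449, 243 bp), 2695 bp upstream. At Zfp981 it was peak 15 (chr4:146511981-146512223, 243 bp), 2818 bp upstream of the later start and within the gene's intron. Peaks within 10 kb of a start numbered 4, 3, 3 and 5 for Zfp990, Zfp992, Zfp981 and Zfp988.

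By annotation of their midpoints, 50 of the 65 peaks were intronic, 8 were intergenic, 5 were in exons of non-coding transcripts, 1 was in a UTR of Zfp992 (peak 8) and 1 was in a coding exon of Zfp978 (Zfp988 peak 17). The same annotation was not made for all peaks, so these counts are descriptions and cannot be set against the whole list. Most introns belonged to long non-coding RNAs that run across the cluster. All 24 Zfp988 peaks lay within Gm26624 and C230088H06Rik, a pair of lincRNAs on opposite strands, and all 17 peaks of Zfp992 and Zfp981 lay within the lincRNA Gm26573. Of the Zfp990 peaks, 7 lay within Platr16, a non-coding transcript, and 5 of the Zfp988 peaks also lay within the pseudogene Gm13147. Intron labels here therefore depend mainly on these long transcripts and not on the coding genes.

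In width and GC content the peaks were close to the list as a whole, while their repeat-masked share was higher. Their median width was 374 bp (212 to 1104) against 352 bp over all peaks, with Zfp990 peak 22 (chr4:145574053-145575156) the widest and Zfp988 peak 15 (chr4:147349575-147349786) the narrowest. Their median GC content was 45.5% against 46.4% over all peaks, and ranged from 34.5% to 71.0%. Bases in lower case in the reference, which mark interspersed and simple repeats, made up a median of 20.0% of a peak against 13.0% over all peaks. More than 50% of the bases were masked in 16 of 65 peaks (24.6%) against 15.6% of all peaks.

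The highest GC content belonged to Zfp992 and Zfp981 peak 9 (chr4:146475207-146475527), which is named for this value after it was seen. It overlaps the processed pseudogene Gm13241 and carries 39 CpG dinucleotides in 321 bp. Its central 300 bases on the plus strand, chr4:146475217-146475516, are given with their 37 CpG in capitals, to show how densely they occur.
Zfp992 and Zfp981 peak 9: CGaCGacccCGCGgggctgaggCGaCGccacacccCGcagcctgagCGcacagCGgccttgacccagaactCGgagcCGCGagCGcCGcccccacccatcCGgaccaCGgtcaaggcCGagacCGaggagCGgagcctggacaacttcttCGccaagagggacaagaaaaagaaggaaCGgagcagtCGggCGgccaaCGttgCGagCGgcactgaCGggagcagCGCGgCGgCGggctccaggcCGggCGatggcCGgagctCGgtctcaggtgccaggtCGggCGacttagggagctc

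Repeated sequence was measured directly by counting, for each 31-mer (run of 31 bases) of a peak, the places in the genome that hold it on either strand. A peak was called multi-copy when over 50% of these runs were found again elsewhere in the genome. By this measure 31 of the 65 peaks were multi-copy (47.7%, 95% Wilson interval 36.0 to 59.6), against 6.86% of all peaks. The number was 7 of 24 at Zfp990 (29.2%), 8 of 17 at Zfp992 and Zfp981 (47.1%) and 16 of 24 at Zfp988 (66.7%). None of the 65 peaks was free of repeated 31-mers, whereas 17437 of the 26704 peaks in the list were. The share nevertheless varied widely among members, from 0.179% in Zfp992 and Zfp981 peak 6 and 0.483% in Zfp990 peak 19 to 100% in Zfp988 peak 11, with a median of 48.9%.

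By the same measure the surrounding sequence held more repeated 31-mers than the peaks. Windows of the same width placed 5 kb to either side of each peak, 119 in all after 11 that met another peak or unknown bases were left out, had a median share of 67.6%, and 88 of them were multi-copy (73.9%, 65.4 to 81.0). Windows placed in the same way around all peaks were also more often multi-copy than the peaks, at 8.80% of 52500 against 6.86%. For the 63 peaks with a window, the peak had a lower share than the mean of its windows in 54 and a higher one in 8, with a median difference of -19.2 percentage points. At the top of the scale, more than 90% of 31-mers were repeated in 1 of 65 peaks (1.54%) and in 25 of 119 windows. Over the whole list the same held for 0.453% of peaks and 3.05% of windows, so fewer highly repeated peaks than windows were seen there too. The windows of the members also had a lower GC content than the members, with a median of 39.8% against 45.5%. Over the whole list the windows were lower too, at 43.8% against 46.4%. The reads were paired and longer than 31 bases, so a repeated 31-mer does not by itself make a read map to several places. Whether regions without uniquely mapping reads were left out of the list for that reason was not tested.

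**Figure D2:**
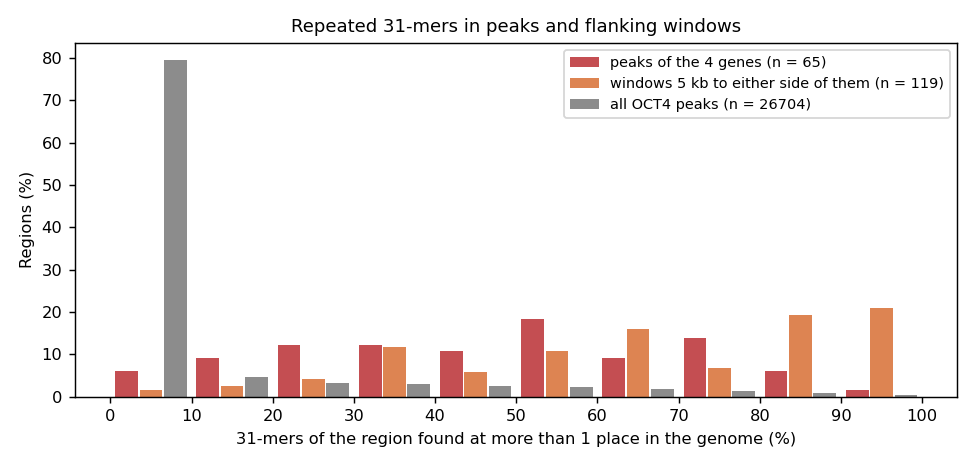
Percent of regions (y axis) by the share of their 31-mers found at more than 1 place in the genome (x axis, percent, in bins of 10 points), for the 65 peaks of the 4 genes, the 119 windows 5 kb to either side and all 26704 peaks. Most of all peaks fall in the lowest bin, the members spread over the whole scale, and the windows have their tallest bars above 80%.

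Copies were then located as alignments of at least 90% identity over at least 80% of a peak. No other copy was found for 13 of the 65 peaks, 25 had 1 to 4 other copies, 25 had 5 to 18, and 2 had over 100. The last were Zfp992 and Zfp981 peak 1 (chr4:146425428-146425953, 98.5% masked), with 4405 other copies, and Zfp988 peak 6 (chr4:147268639-147269046, 82.8% masked), with 337. For 37 of the 52 peaks with another copy, every other copy lay in the chromosome 4 cluster, that is within 1 Mb of the span of the 4 genes.

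Copies of members were then set against the list. The share of other places in the cluster that overlap a listed peak was not computed, so the shares below are descriptions. Of the windows placed 5 kb from a member, 11 met another peak, members included, or unknown bases, and 119 did not. They give no baseline for shares that leave out members. Without the 2 peaks of over 100 copies, and leaving out places where the copy was itself 1 of the 65 peaks, the others had copies at 239 places, and 25 of these overlapped a listed peak by at least 1 base (10.5%, 7.19 to 14.99). With the 13 places that were themselves members counted, this was 38 of 252 (15.1%, 11.2 to 20.0). Without those 13, it was 24 of 204 places in the cluster (11.8%) and 1 of 35 elsewhere, on chromosome X. Of the 52 members with another copy, 24 had at least 1 listed copy, other members included. Repeated 31-mers were then compared over pairs of a member and a copy in the cluster, again without copies that were members. A place that was a copy of several members counts once for each, so the pairs are not separate places. The 37 listed copies had a median of 75.1% repeated 31-mers and the 214 unlisted copies had a median of 91.0%. Their median identities to the member were 94.2% and 94.1%. Over the whole genome the medians were 74.2% for 38 listed and 87.4% for 249 unlisted copies. The 35 unlisted copies outside the cluster had a lower median, of 51.2%, and ranged from 5.97% to 100%. What part mapping had in this was not tested.

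**Figure D3:**
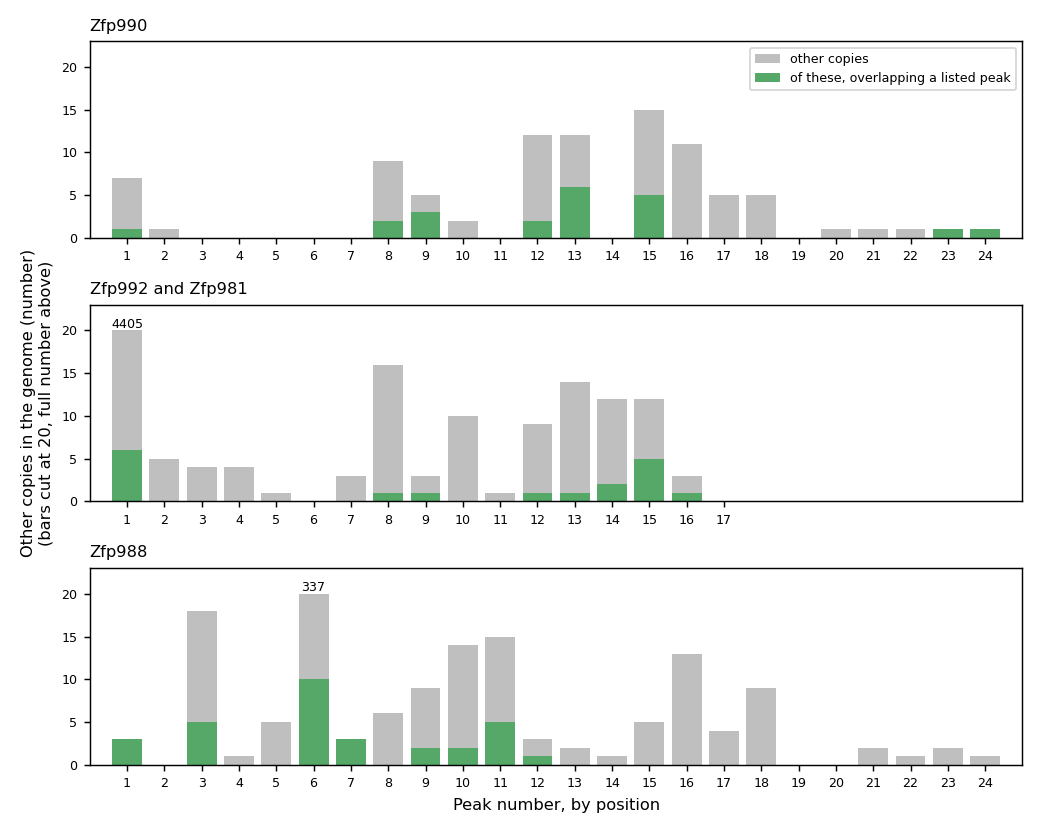
Number of other copies in the genome of each peak (y axis, grey; bars are cut at 20 and the full number is printed above) and how many of them overlap a listed peak (green), by peak number along the chromosome (x axis), for the 3 sets of peaks. Zfp990 peak 13 has 12 other copies, of which 6 are green, and the peaks with 4405 and 337 copies have 6 and 10.

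Zfp990 peak 13 had the most listed copies of the members with under 100. Its whole sequence on the plus strand, chr4:145515854-145516076, is printed with the composite match in capitals, since this match was carried by every copy.
Zfp990 peak 13: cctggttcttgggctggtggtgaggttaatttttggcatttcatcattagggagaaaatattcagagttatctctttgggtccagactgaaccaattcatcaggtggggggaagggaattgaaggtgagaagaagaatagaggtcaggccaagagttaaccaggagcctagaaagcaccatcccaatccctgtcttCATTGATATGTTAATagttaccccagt

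Its 13 copies, itself included, were all on chromosome 4, each next to a different coding gene, at 93.2% to 96.9% identity. They lay 1094 to 5961 bp downstream of the first start of Zfp990, Zfp980, Zfp986, Zfp987, Zfp600, Gm21411, Zfp989, Rex2, Zfp988, Zfp978, Zfp985, Zfp979 and Zfp534. All 13 held a composite match with 3 mismatches, of the same letters in 12. The exception was the copy at Rex2, which is shown beneath the copies at Zfp985, which was in the list, and Zfp979, which was not, each written on the strand of the member.
Copy at Zfp985, chr4:147558246-147558287, plus strand: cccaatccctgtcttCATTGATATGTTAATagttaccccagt
Copy at Zfp979, chr4:147638037-147638078, minus strand: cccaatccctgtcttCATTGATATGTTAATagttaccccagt
Copy at Rex2, chr4:147026291-147026332, plus strand: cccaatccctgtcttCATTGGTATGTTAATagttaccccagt

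Over these 42 bases the copies at Zfp985 and Zfp979 were identical, yet only the first overlapped a listed peak. Apart from Zfp990 itself, the copies at Zfp980, Zfp987, Gm21411, Zfp989, Rex2 and Zfp985 overlapped listed peaks. Of these, the copies at Gm21411, Zfp989 and Zfp985 were covered completely and that at Zfp987 by 66.8%. The copy at Zfp980 was covered by 46.8% and that at Rex2 by 3 bases only, so 4 of the 6 were covered by 50% or more. The 6 listed copies had 31.1% to 100% repeated 31-mers, with a median of 77.4%. The 6 unlisted copies, at Zfp986, Zfp600, Zfp988, Zfp978, Zfp979 and Zfp534, had 93.3% to 100%, and 5 of them were at 100%. Only 1 listed copy, at Zfp987, reached the same level. Thus the copies that shared the motif differed in being listed, and the ranges of repeated 31-mers met at the top.

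**Figure D4:**
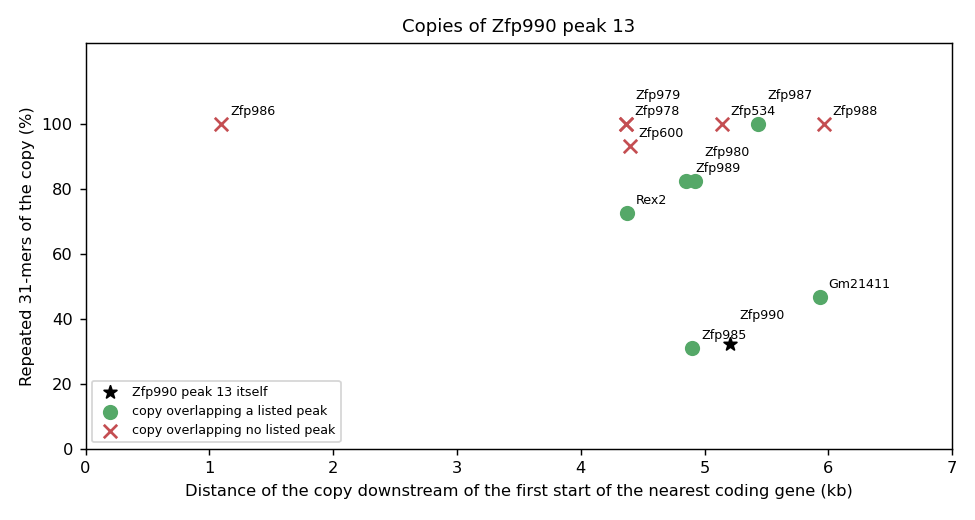
Each copy of Zfp990 peak 13 by its distance downstream of the first start of the nearest coding gene (x axis, kb) and its share of 31-mers found at more than 1 place (y axis, percent), labelled by that gene. The star is the peak itself, circles are the 6 copies that overlap a listed peak by at least 1 base, and crosses are the 6 that do not, which all lie above 90%.

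Copies of the other members close to starts were placed in more than 1 way. The 4 other copies of Zfp992 and Zfp981 peak 4 and the 12 of peak 15 held no single distance to the nearest coding gene. They spread from -56728 to 30797 bp and from -74019 to 131343 bp of its first start (negative upstream). Distances to pseudogenes were not taken. Some copies of peak 15 did lie alike, at 1373, 1335 and 1301 bp downstream of the first starts of Zfp980, Gm21411 and Zfp989. The copy at -74019 bp (chr4:147231529-147231781) lay inside the pseudogene Gm13147 (chr4:147230284-147259338, plus strand), near its start. Zfp990 peak 14, 1894 bp downstream of a start, had no other copy. Others kept their place. Zfp988 peak 9 had 9 other copies, of which 7 lay 52 to 115 bp upstream of the first starts of Zfp990, Zfp980, Zfp987, Zfp989, Zfp982, Zfp985 and Zfp534. The copy at Zfp984 lay 74 bp upstream of a later start of that gene. The remaining copy (chr4:147229839-147230594) spanned the start of the pseudogene Gm13147. Among its copies, those at Zfp980 and Zfp984 overlapped a listed peak, by 29.5% and 29.3% of their bases. The copy at the start of Zfp990 overlapped none. Zfp990 peak 12 (chr4:145507126-145507378), 3507 bp upstream of Zfp990, had copies 2805 to 4404 bp upstream of 11 other coding genes and 1 downstream of Gm16503. Of these 12, the copies at Zfp981, where it is Zfp992 and Zfp981 peak 14, and at Gm21411 overlapped listed peaks. Zfp988 peak 16 (chr4:147354469-147354729), 6704 bp upstream of Zfp978, had 13 other copies and none in the list. Of these 13, 10 lay 6042 to 6711 bp upstream of a first start. Those at Gm21411, Gm16503 and Zfp984 lay downstream of the first start.

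The promoter of Zfp988, the only one of the 4 with a peak over it, is given here as the 250 bases before its RefSeq start (GRCm38.p6), chr4:147305354-147305603 on the plus strand, which lie entirely inside peak 9. Neither an octamer nor a composite match was present in the peak.
Zfp988 promoter: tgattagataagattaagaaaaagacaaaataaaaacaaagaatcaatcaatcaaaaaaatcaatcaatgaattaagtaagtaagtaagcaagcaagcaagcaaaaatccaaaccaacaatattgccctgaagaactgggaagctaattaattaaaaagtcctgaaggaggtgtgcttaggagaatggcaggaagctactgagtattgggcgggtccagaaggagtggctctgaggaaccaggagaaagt

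Copies of the peaks with an octamer were examined in the same way. Zfp990 peak 8, in the processed pseudogene Gm13223, had 9 other copies, and the octamer was present in 9 of the 10. Only 2 copies met a listed peak, by 8 and 19 bases, so no copy with the octamer was covered by 50% or more. Zfp990 peak 23, 1065 bp downstream of a start of Gm13212, had 1 other copy, 1225 bp downstream of the start of Zfp984 at 97.2% identity, with the octamer and in the list. Zfp990 peaks 3 and 11 had no other copy at this identity and length.

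Members were also compared with each other. At 90% identity over at least 50% of the shorter peak, 14 of the 65 peaks fell into 7 pairs and the other 51 stood alone. Zfp990 peak 12 was paired with Zfp992 and Zfp981 peak 14 (96.0% identity over 251 bp), and Zfp990 peak 9 (chr4:145463456-145463805) with Zfp988 peak 7 (95.2% over 313 bp). Zfp990 peak 22 was paired with Zfp992 and Zfp981 peak 16 (91.2% over 249 bp). Within a locus, Zfp990 peak 1 (chr4:145417689-145417936) was paired with Zfp990 peak 3 (94.8% over 248 bp), and Zfp988 peak 3 with Zfp988 peak 11 (97.1% over 210 bp). The dense peaks were thus not 1 sequence repeated many times, and most members had no counterpart among the other members.

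Counted by the same rule over 21938 protein-coding genes, the median was 3 peaks per gene, and 40 genes had 17 or more and 7 had 24 or more. The 14 neighbouring Zfp genes of chromosome 4 had a median of 10 peaks, from 4 at Zfp986 and Zfp993 to 16 at Zfp991, 21 at Zfp982 and 23 at Zfp978. Windows of neighbouring genes overlap, so these counts share peaks. The 347 other Zfp genes in the genome had a median of 3 and at most 13. Off chromosome 4 the highest counts were 55 at Fgfr2, 49 at Gm20388, 24 at Eif4enif1, 24 at Etl4 and 23 at Auts2. The windows of these genes spanned 3155, 4535, 233, 1098 and 1287 kb in the same order, and those of the 4 zinc-finger genes 200 to 227 kb each. Eif4enif1 thus reached 24 peaks in a window of similar size, with no copy of a member in it. Whether its peaks hold repeated sequence of another kind was not examined. Outside the 4 genes and the 14 neighbouring Zfp genes, the most copies of the members in a window were at Gm13212 (28), Gm21411 and Rex2 (22 each), Gm16503 (17) and Miip (9). These had 21, 9, 13, 13 and 6 peaks in that order. The neighbours were picked by symbol alone, so genes without a Zfp symbol may still be zinc-finger genes.

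**Figure D5:**
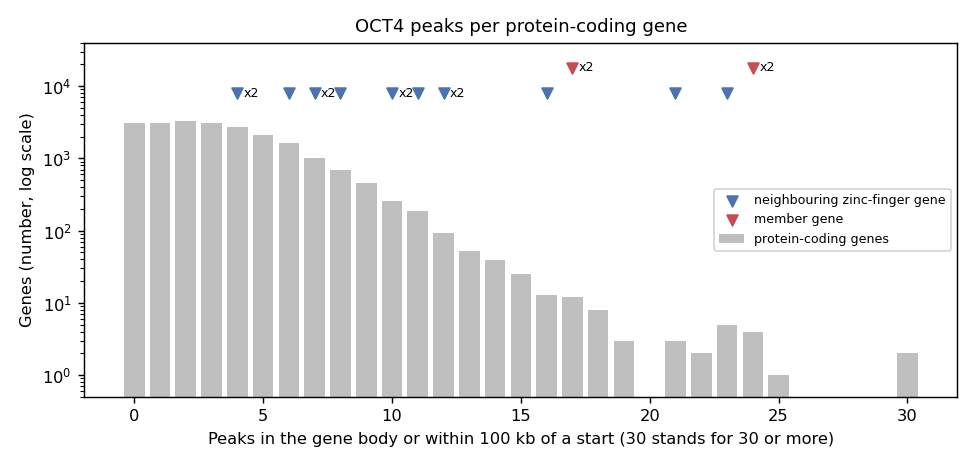
Number of protein-coding genes (y axis, log scale) by the number of OCT4 peaks in the body or within 100 kb of a start (x axis), with the 4 genes (red) and the 14 neighbouring Zfp genes (blue) marked above; a number after a marker counts genes at the same value. The 4 genes lie at 17 and 24, in the tail of the distribution, and the neighbours run from 4 to 23.

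The peaks of the neighbouring Zfp genes that met the rule for none of the 4 numbered 68. Of these, 49 were multi-copy (72.1%, 60.4 to 81.3), against the 47.7% of the members, and 12 had over 90% repeated 31-mers. This difference was not tested. Their motif shares were 7.35% for the composite, 4.41% for the octamer and 7.35% for the SOX core, with intervals that overlapped those of the members. When they were added to the comparison between peaks, 24 of the 65 members had a counterpart, against 14 among the members alone.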

How the data were processed

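The ChIP-seq labels describe 16 libraries in 8 groups. Per the labels and methods, the authors aligned reads to mm10 with STAR 2.6.1c, removed duplicates with Picard, called peaks with MACS2 2.1.1.20160309 and merged peaks with BEDTools. The stated calling settings name no input control. The methods also describe removing peaks over 5 kb, peaks found in input samples and blacklisted peaks. The widest peak of the list used here was 38168 bp, so that width limit was not applied to it. Whether the input and blacklist screens were applied is not given. The deposited list of merged OCT4 peaks holds 3 columns, the chromosome, start and end in base pairs, without counts, heights or library names, so depth is unknown, no replicate error exists and a merged width is a union of peaks. No test across libraries was possible, and no p-value is given. The members and lists were chosen with earlier results of these data known.

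Coordinates are 1-based on GRCm38. Repeated 31-mers were counted on both strands of the RefSeq GRCm38 sequence. Copies came from blastn 2.17.0 (word size 16, e-value 1e-10). Annotation was GENCODE M21. Promoter sequences of 2 of the 4 genes, Zfp981 and Zfp988, were matched in RefSeq. The k-mer and motif counts were tested on simulated data. Named genes were the 4 genes, the neighbouring Zfp genes within 5 Mb, non-coding genes holding 3 or more members, the 5 genes off chromosome 4 with the most peaks, and the 5 genes outside the list with the most copies. Named peaks were those nearest starts, the widest and narrowest, representatives of 4 sequence families, those with motifs and those at the 100 kb limit. Other peaks are named for their copies or repeats after their values were seen. Alternatives concerned distance, joining, width, k-mer length, mismatches, identity and overlap. Wilson intervals are 95% and cover counting error only.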

Additional observations from a re-analysis of the deposited data

How the results depend on the processing

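No paired analysis was possible because merged coordinates give no value per library and no result comes from a test. Among the recalculations, 16 stayed close to the reported value and 15 moved. The 65 peaks became 40 within 50 kb, 13 in gene bodies and 38 at a width of at least 300 bp. The multi-copy share was 1.54% when over 90% of 31-mers had to be repeated (0.453% of all peaks) and 73.8% with 21-mers (12.5% of all peaks). With at most 2 mismatches the composite share was 0% (2.21% of all peaks). With at most 1 mismatch the octamer share was 35.4% (53.5% of all peaks), and within 50 kb it was 0%. In the central 200 bp the SOX core share was 4.62% (20.5% of all peaks). Peaks in sequence families numbered 8 at 95% identity and 24 with the neighbours' peaks added. The listed share of all 4981 copies, 0.823%, was 8.11% at 95% identity, 0.337% at 80%, 10.5% without the 2 peaks of over 100 copies, and 15.1% when copies that are members were also counted. The settings with the neighbours' peaks, the 2 peaks and the members counted were chosen after the data were seen. The direction against all peaks was the same under every one of these motif and multi-copy settings for which both shares were computed. Depth is unknown, so a copy missing from the list cannot be told from 1 below the calling threshold.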

Other observations

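Away from the chromosome 4 cluster, the members with under 100 copies had copies at 35 places, of which 10 were on chromosome 6 and none of those 10 was in the list. Zfp988 peaks 21, 22, 23 and 24, the farthest downstream members, had their other copies on chromosome 6 only. For these 4 peaks the copies matched at 94.8% to 97.0% identity and had 32.4% to 45.3% repeated 31-mers. The median for unlisted copies in the cluster was 91.0%. Why the copies on chromosome 6 were not listed was not tested. The closest was the copy of Zfp988 peak 22, at chr6:67681022-67681256 on the minus strand, with 97.0% identity and 35.6% repeated 31-mers. The only listed copy elsewhere was that of Zfp992 and Zfp981 peak 13, at chrX:104115391-104115683 on the minus strand, with 92.2% identity and 43.3% repeated 31-mers.

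Zfp990 peak 14, inside the gene, had 71.8% repeated 31-mers but no other copy at 90% identity over 80% of its length, and Zfp988 peak 11 was listed although all its 31-mers occurred elsewhere and it had 15 other copies.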
